A study of Homo sapiens with 12 samples.

Results

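ANKRD11 is a long gene on chromosome 16 whose transcript carried many contacts of NONO, a nuclear RNA-binding protein of paraspeckles that also binds the introns of nascent transcripts. The members are the peaks that the authors annotated to ANKRD11, 459 of the 26351 peaks in 6 lists, or 1.74%. It had the 4th most peaks of the 479 genes that reached 10 peaks in total. The gene was chosen by these peak counts: it is rich in peaks, has peaks in every list and had a larger share of peaks with both compounds than with DMSO. The comparisons of each compound with DMSO in its share of peaks are therefore given as a description, with no test.

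The contacts were mapped by eCLIP, in which protein is crosslinked to RNA by UV light, immunoprecipitated with its RNA, and compared with an input library of the same cells. The cells were 22Rv1, a human prostate cancer cell line. They received 20 µM SKBG-1(R) in 0.04% DMSO, 20 µM SKBG-1(S) in 0.04% DMSO, or 0.04% DMSO alone, for 4 h, and each treatment had 2 immunoprecipitations, each with its own input. SKBG-1(R) and SKBG-1(S) are stereoisomers, so both were compared at the same dose and time. The labels do not say whether the replicates were separate cultures, so the tests measure only the spread between these libraries, which may be technical.

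The ANKRD11 protein is a large nuclear chromatin regulator with ankyrin repeats that binds histone deacetylases and p160 nuclear receptor coactivators. Loss of 1 copy of the gene causes KBG syndrome, a developmental disorder. The gene (ENSG00000167522) lies on the minus strand at chr16:89267619-89490561 in GRCh38 and spans 222.943 kb. The protein-coding transcript ANKRD11-201 has 13 exons in GENCODE 29, and its 7989 coding nt begin in exon 3. Its exon 9 alone holds 6578 nt.

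The lists differed in length, which sets the precision of every value below. SKBG-1(R) gave lists of 1953 and 14847 peaks, SKBG-1(S) lists of 1237 and 3967, and DMSO lists of 669 and 3678, replicate 1 before replicate 2 in each pair. The files give no read counts, so the depth of the libraries is unknown. SKBG-1(R) replicate 2 was the longest list and held 56.9% of the ANKRD11 peaks. A list contains only peaks past the authors' limits, so a place with no peak was not called there, which does not show that NONO was absent. Among prostate and 22Rv1 marker genes, GRHL2, SPDEF and TMPRSS2 held peaks and KLK3 and KLK2 held 0. Peaks do not measure expression, and the labelled cell line could not be checked further this way.

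Only 9 of the 459 peaks (1.96%) lay wholly within exons of annotated transcripts and so could be read as sequence. Printed here, on the strand of ANKRD11 and credited to GENCODE 29, are the end of exon 1, beyond which the densest group of peaks begins, a pair of sites shared between lists, and 2 whole peaks of the authors' distal intron class. Capitals mark the run GGGG.
Last 30 nt of exon 1, chr16:89490245-89490274, minus strand: gtcgcggagccgcgcagccctcggagcacg
Site shared by SKBG-1(R) replicate 2 and SKBG-1(S) replicate 2, chr16:89300770-89300796, minus strand: ggtgcctGGGGtgtgctctctgcagtg
Site within peaks shared by SKBG-1(R) replicate 2 and DMSO replicate 2, chr16:89373397-89373426, minus strand: gcctggctccctgttGGGGttgcccccggt
Peak of SKBG-1(R) replicate 2 in intron 2, chr16:89324283-89324348, minus strand: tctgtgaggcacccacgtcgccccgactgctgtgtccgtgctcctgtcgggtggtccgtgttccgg
Peak of SKBG-1(R) replicate 2 in intron 2, chr16:89395945-89395985, minus strand: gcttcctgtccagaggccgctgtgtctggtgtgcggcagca

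The 5 sequences held more G and C than the mean of 56.3% over the 30-nt windows of the gene that have sequence, all from exons of annotated transcripts. The end of exon 1 was 80% GC, the 2 shared sites 66.7% and 73.3%, and the 2 peaks of the distal intron class 68.2% and 65.9%. The first of these 2 peaks was read from an exon of a long noncoding RNA, AC137932.2-201, and the second from ANKRD11-227. The shared sites were read from exons of ANKRD11-209 and ANKRD11-220. The authors classed their peaks as 3′ and 5′ untranslated region (UTR), respectively. Both shared sites hold GGGG once, a run that was present in 10.6% of the 27-nt windows and 11.8% of the 30-nt windows of the gene that have sequence. On the strand of the transcript, none of the 5 held AGGGA. The splice donor sequence GTAAGT was found in none of them either, and nor was TTTTT. Of the 30-nt windows, 4.64% held AGGGA, 2.66% held TTTTT and 0% held GTAAGT. These absences therefore say nothing about the sites. These are descriptions of a few readable sites and do not represent the intronic peaks as a whole.

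ANKRD11 took a larger share of the peaks in all 4 compound lists than in both DMSO lists. It had 64 and 261 peaks with SKBG-1(R), 19 and 84 with SKBG-1(S), and 4 and 27 with DMSO. As a share of the list, these were 3.28% (95% Wilson interval 2.57 to 4.16) and 1.76% (1.56 to 1.98) with SKBG-1(R). With SKBG-1(S) they were 1.54% (0.985 to 2.39) and 2.12% (1.71 to 2.61), and with DMSO 0.598% (0.233 to 1.53) and 0.734% (0.505 to 1.07). The lowest compound list, SKBG-1(S) replicate 1, thus stood above the higher DMSO list, although its interval reaches below that list's upper bound. The intervals cover counting error only.

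Per 10000 peaks of a list, ANKRD11 averaged 251.7 ± 107.4 with SKBG-1(R), 182.7 ± 41.1 with SKBG-1(S) and 66.6 ± 9.63 with DMSO (SD, n = 2 each). In a fit over all genes SKBG-1(R) had a log2 fold change of 1.79 over DMSO and SKBG-1(S) one of 1.38, beside medians of 0.23 and 0.14 over all 479 genes. Both comparisons share the DMSO lists. Of the 479 genes, 26 (5.43%) had all 4 compound lists above both DMSO lists, 50 (10.4%) had both SKBG-1(R) lists above both DMSO lists and 64 (13.4%) had both SKBG-1(S) lists above them. ANKRD11 is among them by the way it was chosen, and nothing is read from these shares. Whether the amount of ANKRD11 RNA differed was not tested. In a bulk sample a difference in the number of cells with contacts and one in RNA per cell cannot be told apart.

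**Figure D1:**
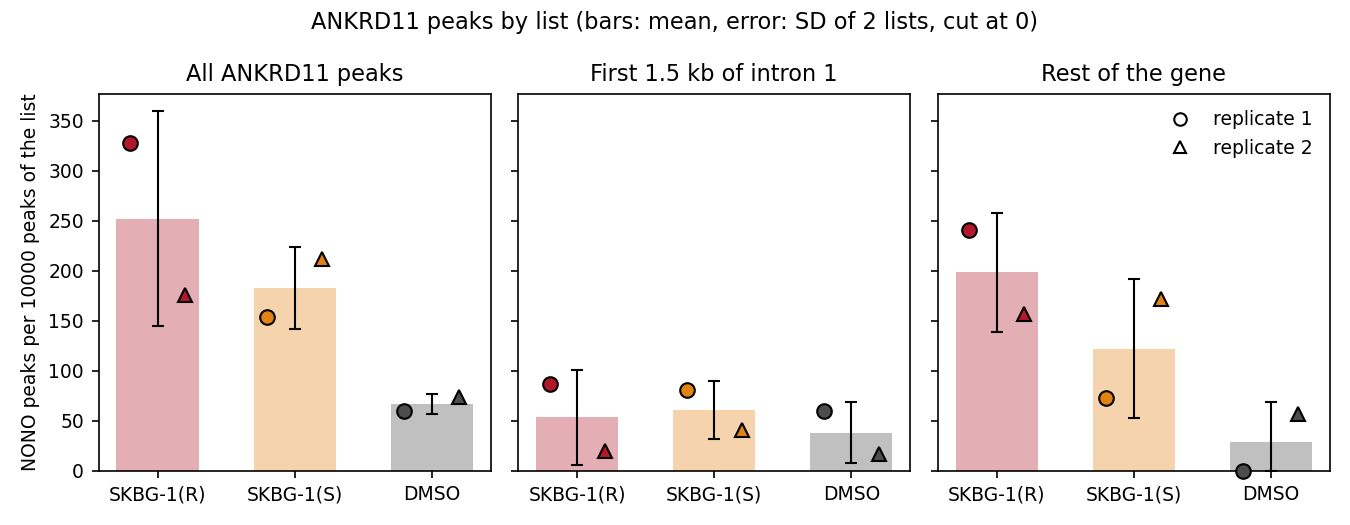
ANKRD11 peaks per 10000 peaks of each list by treatment, for the whole gene, the first 1500 nt of intron 1 and the rest of the gene (points, lists; bars, means; error bars, SD of 2 lists, cut at 0). In the whole gene the SKBG-1(R) lists stood at 327.7 and 175.8 and the SKBG-1(S) lists at 153.6 and 211.7, all above the DMSO lists at 59.8 and 73.4.

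The stereoisomers were not used against each other in choosing the gene, so this difference was tested. SKBG-1(R) had 327.7 and 175.8 ANKRD11 peaks per 10000, against 153.6 and 211.7 with SKBG-1(S). The lists overlapped: the lower SKBG-1(R) list lay between the 2 SKBG-1(S) lists. The log2 fold change was 0.40 (SE 0.82, 95% interval -1.30 to 2.11), and it did not pass limma's test (adjusted p = 0.995, with a range of 0.739 to 0.999 over the alternatives). limma called 0 of the 479 genes (0%) in this comparison, where 5 had an unadjusted p under 0.05. Both SKBG-1(R) lists stood above both SKBG-1(S) lists for 30 genes (6.26%), and ANKRD11 was not 1 of them. The interval includes differences of more than 1 on the log2 scale in either direction, so the test does not show that the stereoisomers act alike. With SKBG-1(R) replicate 1 left out, this log2 fold change was -0.036, and with no scaling for list length it was 1.63.

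Every ANKRD11 peak lay in introns 1 to 4 of ANKRD11-201, and 0 lay in its exons or in introns 5 to 12. The last 24.7 kb of the gene (11.1% of its length) held no ANKRD11 peak in any list. That stretch contains 7763 of the 7989 coding nt (97.2%), exon 9 included. A further 2 peaks named ANKRD11 in the authors' annotation but were assigned to another gene, and were not counted. Among 163 other genes of at least 100 kb, the same final fraction of the gene held 0.289% and 5.30% of the peaks with SKBG-1(R), 0.781% and 1.38% with SKBG-1(S), and 0% and 2.24% with DMSO. Few peaks near the 3′ end were thus also found in other long genes, and no difference from them was tested.

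**Figure D2:**
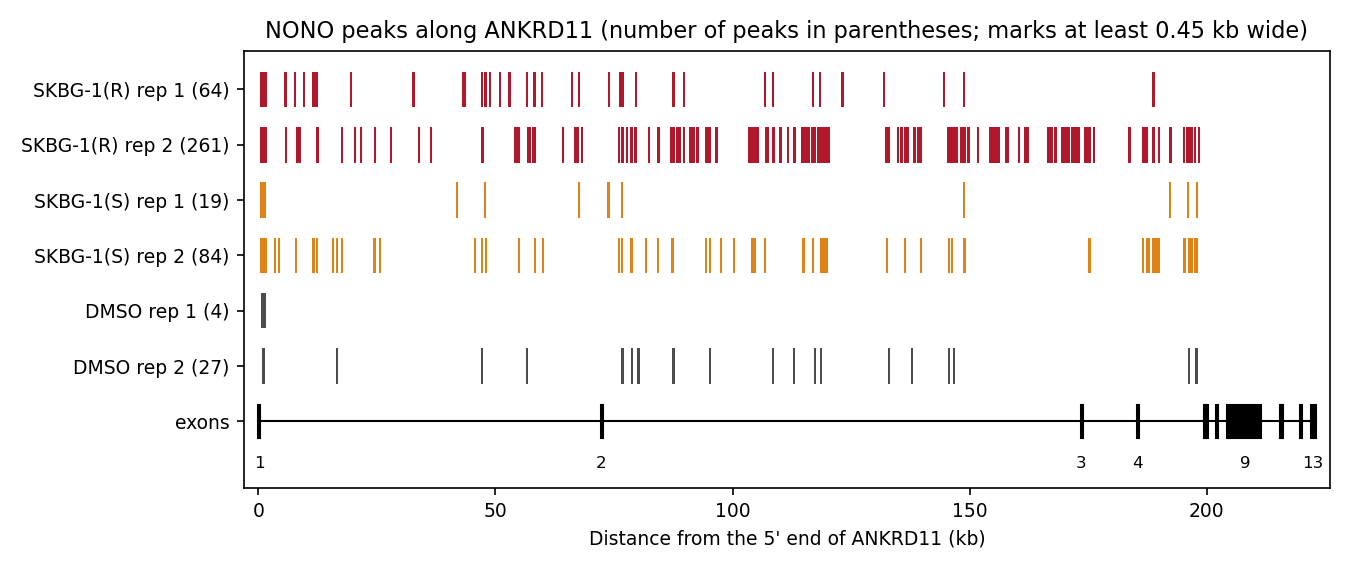
Position of each ANKRD11 peak along the gene, as distance from its 5′ end in kb, with 1 row per list and the exons of ANKRD11-201 marked. Peaks occupy introns 1 to 4, are dense just past exon 1 in every list, and are absent from the last 24.7 kb.

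Intron 1 (71.876 kb) and intron 2 (101.205 kb) held most of the peaks, 166 and 241 over all lists. Intron 3 (11.588 kb) held 7 and intron 4 (14.022 kb) held 45. The order of the introns by peaks per 10 kb differed between lists. With SKBG-1(R), intron 1 was densest in replicate 1 (6.54 per 10 kb, against 1.58 in intron 2 and 0.713 in intron 4) and intron 2 in replicate 2 (17.5, against 8.21 in intron 1 and 13.6 in intron 4). With SKBG-1(S), intron 4 was densest in both lists, at 2.14 and 13.6 per 10 kb, against 1.81 and 4.73 in intron 1. With DMSO it was intron 1 in replicate 1, which held all 4 peaks, and intron 4 in replicate 2, on 3 peaks.

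The lists divided their peaks between the introns in different ways. In intron 1, SKBG-1(R) had 47 and 59 peaks, SKBG-1(S) had 13 and 34, and DMSO had 4 and 9. These were 73.4% and 22.6% of the ANKRD11 peaks with SKBG-1(R), 68.4% and 40.5% with SKBG-1(S), and 100% and 33.3% with DMSO. In each treatment the shorter list, replicate 1, had the larger share there.

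In intron 2, SKBG-1(R) had 16 and 177 peaks, SKBG-1(S) had 3 and 30, and DMSO had 0 and 15. Intron 4 held 1 and 19 with SKBG-1(R), 3 and 19 with SKBG-1(S), and 0 and 3 with DMSO. Peaks beyond intron 1 were thus few in the replicate 1 lists of every treatment. List length and replicate number move together here, and their parts in this pattern cannot be told apart.

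**Figure D3:**
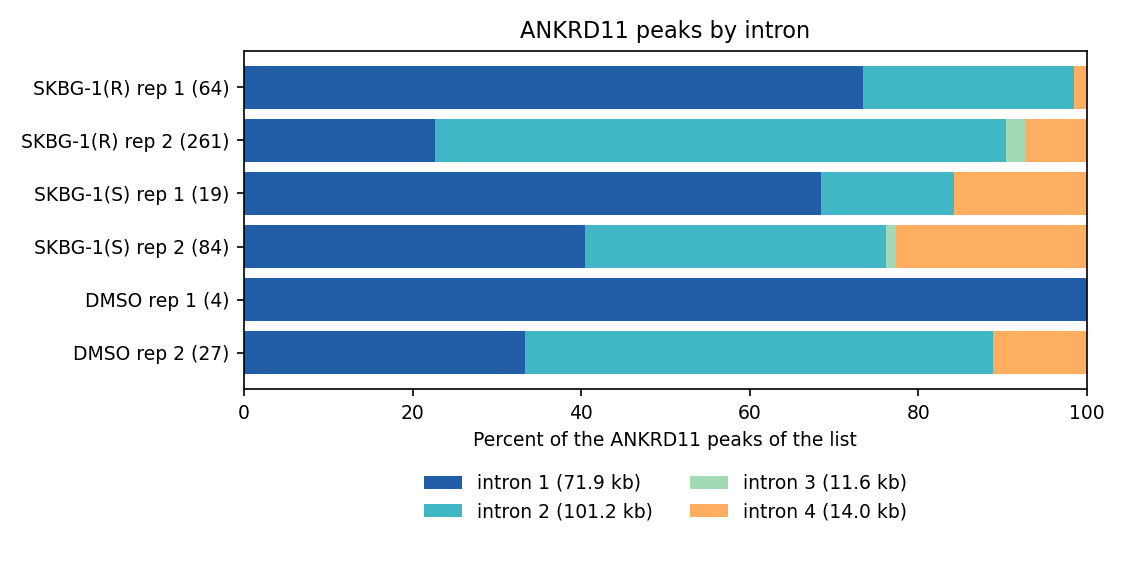
ANKRD11 peaks in introns 1 to 4 as a percent of the gene's peaks in each list, by treatment and replicate. Intron 1 held 73.4% and 22.6% with SKBG-1(R), 68.4% and 40.5% with SKBG-1(S), and 100% and 33.3% with DMSO.

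The densest group of peaks began just beyond exon 1. The first 1500 nt of intron 1 make up 0.673% of the gene and held 82 of the 459 peaks (17.9%). All 82 started within 1032 nt of exon 1, and the next peak lay 3055 nt into the intron. The window was chosen after the values were seen. SKBG-1(R) had 17 and 29 peaks in it, SKBG-1(S) had 10 and 16, and DMSO had 4 and 6. It was the one part of the gene with peaks in every list. Peaks near the 5′ end were also common in the 163 other long genes. The first 2 kb of the gene held 26.6% and 11.1% of the ANKRD11 peaks with SKBG-1(R), against 53.1% and 18.2% of those of the other long genes. With SKBG-1(S) it held 52.6% and 19.0%, against 44.0% and 32.0%, and with DMSO 100% and 22.2%, against 41.2% and 22.9%. ANKRD11 stood below the other long genes in 4 of the 6 lists, and the difference was not tested.

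Peaks of a list often touched each other there, so the covered length describes the group better than the count. Peaks covered 649 and 774 nt with SKBG-1(R), 518 and 680 nt with SKBG-1(S), and 219 and 235 nt with DMSO. The covered length was higher in all 4 compound lists, including those shorter than DMSO replicate 2. The compound lists also came closer to exon 1: their first covered base lay 18 and 5 nt from it in the SKBG-1(R) lists and 28 and 16 nt in the SKBG-1(S) lists, against 258 and 385 nt with DMSO. These values come from the same contrast that chose the gene and were not tested.

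Scaled to list length, the window had 87.0 and 19.5 peaks per 10000 with SKBG-1(R), 80.8 and 40.3 with SKBG-1(S), and 59.8 and 16.3 with DMSO, and the treatments overlapped. The rest of the gene had 240.7 and 156.3 with SKBG-1(R), 72.8 and 171.4 with SKBG-1(S), and 0 and 57.1 with DMSO, and there all 4 compound lists stood above both DMSO lists. These values too come from the contrast that chose the gene. In the rest of the gene SKBG-1(S) replicate 1 had 9 peaks and DMSO replicate 2 had 21. The difference between the window and the rest of the gene was not tested.

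**Figure D4:**
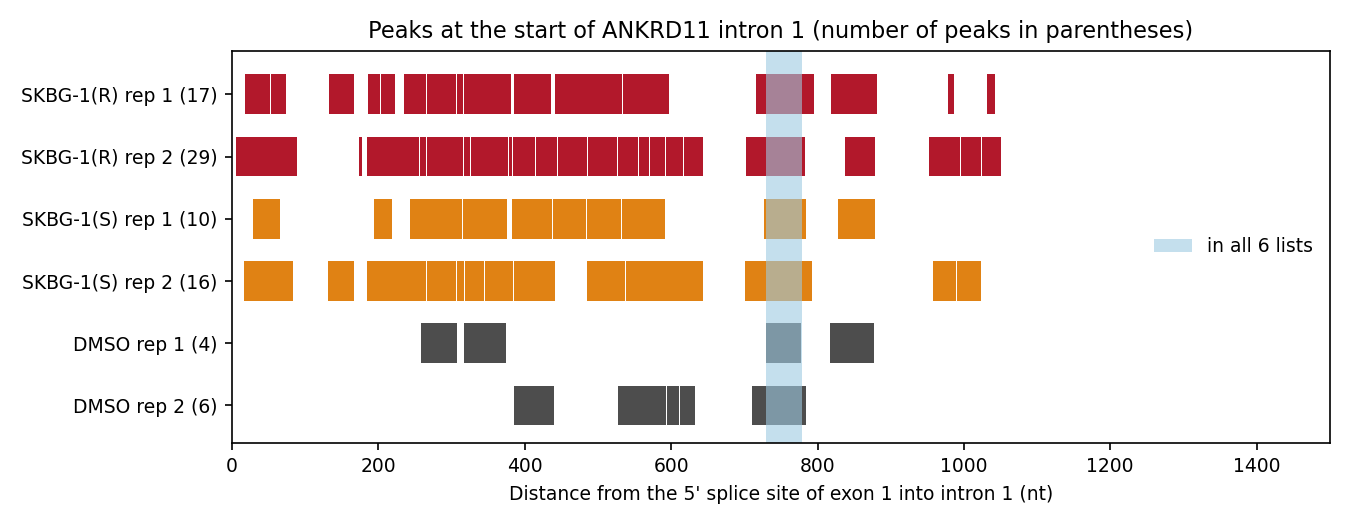
ANKRD11 peaks at the start of intron 1, as distance from exon 1 in nt, with 1 row per list and the 49 nt covered in all 6 lists shaded. Peaks start 5 to 28 nt from exon 1 in the compound lists and 258 and 385 nt from it in the DMSO lists.

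Position was measured along the gene, with 0 at its 5′ limit and 1 at its 3′ limit. The median over the peaks was 0.203 and 0.525 with SKBG-1(R), 0.005 and 0.423 with SKBG-1(S), and 0.004 and 0.359 with DMSO. Within each treatment replicate 1 was nearer the 5′ end, and the treatments overlapped. The differences were 0.183 for SKBG-1(R) minus DMSO, 0.033 for SKBG-1(S) minus DMSO and 0.150 for SKBG-1(R) minus SKBG-1(S). Each had p = 0.667 in an exact two-sided permutation test, whose smallest possible p with 2 lists in each group is 0.333. Adjusted over the 6 tests of position and intron class, every p from the exact test was 1. Leaving out DMSO replicate 1, whose median rests on 4 peaks, turned the SKBG-1(S) difference to -0.145. With every list cut to the 669 peaks of highest −log10 p, a setting chosen after seeing the data, the 3 differences were 0.00051, 4.5e-06 and 0.00051.

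The authors' class of intron within 500 nt of a splice site held 69 peaks, of which 49 lay near the 5′ splice site of exon 1. It took 21.9% and 11.1% of the ANKRD11 peaks with SKBG-1(R), 36.8% and 17.9% with SKBG-1(S), and 50% and 7.41% with DMSO. The 50% stands for 2 of 4 peaks. The means were 16.5 ± 7.61% with SKBG-1(R), 27.3 ± 13.4% with SKBG-1(S) and 28.7 ± 30.1% with DMSO (SD, n = 2 each). The differences, -12.2 percentage points for SKBG-1(R) minus DMSO, -1.35 for SKBG-1(S) minus DMSO and -10.9 for SKBG-1(R) minus SKBG-1(S), had p = 1, 1 and 0.667 in the exact permutation test. The difference between SKBG-1(R) and DMSO was 9.09 points without DMSO replicate 1, and with lists of equal size the 3 differences were -1.92, 4.17 and -6.08 points.

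Overlapping peaks of all lists merged into 291 ANKRD11 regions. Most, 226 (77.7%), came from 1 list, and SKBG-1(R) replicate 2 alone gave 169 regions (58.1%). Over the other genes, 76.8% of 16128 regions came from 1 list. Of the 8 ANKRD11 regions held by at least 4 lists, 5 lay in the first 1500 nt of intron 1. A total of 267 regions (91.8%) had no peak in a DMSO list, against 78.2% for the other genes, a share that follows the choice of the gene.

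The 2 regions held by all 6 lists were neighbours near the start of intron 1. The first, chr16:89489449-89489543, reached a log2 enrichment over input of 5.69 and 3.62 with SKBG-1(R), 5.54 and 4.02 with SKBG-1(S), and 3.29 and 3.10 with DMSO. The second, chr16:89489601-89490010, reached 5.69 and 4.62 with SKBG-1(R), 5.63 and 4.10 with SKBG-1(S), and 4.65 and 3.93 with DMSO. Enrichments are the authors' values per peak, each set against its own input, and are not compared between lists here. Peaks of all 6 lists covered the same 49 nt, chr16:89489466-89489514, at 730 to 778 nt into the intron. The second region is a chain of 51 overlapping peaks in which the peaks of the DMSO lists do not overlap each other, and under a stricter overlap 1 region was held by all 6 lists.

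A total of 3 regions had peaks in all 4 compound lists and in no DMSO list, 1.03% of the ANKRD11 regions and 0.285% of those of other genes. This pattern follows the contrast that chose the gene, and the shares were not tested against each other. The first, chr16:89490155-89490239, begins 5 nt from exon 1, and the second, chr16:89490011-89490059, adjoins the long region above. The third, chr16:89341804-89342014, lies in intron 2, where its log2 enrichment was 3.75 and 4.34 in the SKBG-1(R) lists, and 3.52 and 3.60 in those of SKBG-1(S). No region was held by both DMSO lists and no compound list, a pattern that was rare among the other genes too (3 regions, 0.0186%).

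Replicate lists shared few of their ANKRD11 peaks in the direction from the longer to the shorter list. Peaks overlapping the other list of the treatment made up 43.8% and 15.3% with SKBG-1(R), 63.2% and 19.0% with SKBG-1(S), and 25% and 3.70% with DMSO. For the other genes the shares were 54.8% and 8.89% with SKBG-1(R), 54.2% and 18.7% with SKBG-1(S), and 33.2% and 6.87% with DMSO. All 4 peaks of DMSO replicate 1 also overlapped peaks of both SKBG-1(R) lists and of SKBG-1(S) replicate 1. For the other genes in that list, 61.4%, 60.3% and 64.5% of peaks overlapped those lists. Between treatments, 48 regions were held by SKBG-1(R) and SKBG-1(S), 18.7% of the SKBG-1(R) regions and 60.8% of the SKBG-1(S) regions. SKBG-1(R) and DMSO shared 18, which were 7.0% of the SKBG-1(R) regions and 75% of the DMSO regions. SKBG-1(S) and DMSO shared 12, which were 15.2% of the SKBG-1(S) regions and 50% of the DMSO regions. The regions numbered 257 with SKBG-1(R), 79 with SKBG-1(S) and 24 with DMSO. Such percents depend on these totals and were not computed for other genes.

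Within a list, the median enrichment of ANKRD11 peaks was above that of other genes in both SKBG-1(S) lists and DMSO replicate 1, and below it in the other lists. The median log2 enrichment was 3.76 and 3.69 for ANKRD11 with SKBG-1(R), 4.12 and 3.67 with SKBG-1(S), and 3.97 and 3.52 with DMSO. For the other genes it was 3.77 and 3.75 with SKBG-1(R), 3.76 and 3.64 with SKBG-1(S), and 3.72 and 3.59 with DMSO. In the replicate 1 lists the strongest ANKRD11 peak lay in the first 1500 nt of intron 1. It ranked 10 among the 1953 peaks of SKBG-1(R), 5 among the 1237 of SKBG-1(S) and 43 among the 669 of DMSO. In the replicate 2 lists it lay in intron 2 with SKBG-1(R) and SKBG-1(S) and in intron 4 with DMSO.

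The peaks at the start of intron 1 had a higher median enrichment than the rest of the gene in all 4 compound lists, and a lower one in DMSO replicate 2. The median log2 enrichment in the window against the rest was 4.94 and 3.66 for replicate 1 of SKBG-1(R), and 3.94 and 3.63 for replicate 2. In SKBG-1(S) replicate 1 it was 5.03 and 3.76, and in replicate 2 it was 3.69 and 3.65. In DMSO replicate 2 it was 3.40 and 3.55, and DMSO replicate 1 had no peak elsewhere in the gene.

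Other genes with many peaks differed in how far their peaks recurred. ANKRD11 had 20.6 peaks per 10 kb, and 21.4% of its peaks overlapped the other list of their treatment. C22orf34, a noncoding transcript of similar length, had 23.3 peaks per 10 kb and 27.7% overlapping. GSE1, a gene more than double the length, had 9.83 per 10 kb and 2.61% overlapping. SLC7A5, an amino acid transporter gene of 39.5 kb, had 101.1 per 10 kb and 23.8% overlapping.

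The 5 genes whose log2 peaks per 10000 followed ANKRD11 most closely over the 6 lists were KCMF1, CARS, ACTN4, PISD and GATAD2A, with Pearson's r of 0.946, 0.941, 0.931, 0.916 and 0.891. These are descriptions over 6 lists that share treatments and list lengths. They had far fewer peaks: ACTN4, a gene for an actin crosslinking protein, had 22 and 10 peaks with SKBG-1(R), 2 and 7 with SKBG-1(S), and 0 and 0 with DMSO. GATAD2A, for a subunit of the NuRD chromatin complex, had 9 and 46 with SKBG-1(R), 1 and 7 with SKBG-1(S), and 0 and 3 with DMSO.

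The transcripts of proteins that work with ANKRD11 held few peaks. Of 11 genes for partners and relatives, 4 had a peak and 3 were tested, and limma called 0 of them between SKBG-1(R) and SKBG-1(S), where 0% of all genes were called. NCOA2, for a p160 coactivator, had 15 and 20 peaks with SKBG-1(R), 5 and 14 with SKBG-1(S), and 7 and 6 with DMSO. HDAC4, for a histone deacetylase, had 1 and 51 with SKBG-1(R), 1 and 6 with SKBG-1(S), and 0 and 5 with DMSO.

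Of 17 chromatin genes mutated in syndromes that resemble KBG syndrome, 6 had a peak, 4 were tested and 0 were called between the stereoisomers. ARID1A, for a subunit of the SWI/SNF chromatin remodelling complex, had 10 and 9 peaks with SKBG-1(R), 4 and 2 with SKBG-1(S), and 4 and 2 with DMSO. EHMT1, for a histone methyltransferase, had 7 and 22 with SKBG-1(R), 11 and 23 with SKBG-1(S), and 10 and 35 with DMSO, a log2 fold change of -2.15 for SKBG-1(R) minus DMSO. CHD7, for a chromatin remodeller, had 6 and 14 with SKBG-1(R), 2 and 6 with SKBG-1(S), and 1 and 2 with DMSO, a log2 fold change of 0.67. The median log2 fold change of the 4 was -0.26 for SKBG-1(R) minus DMSO, -0.22 for SKBG-1(S) minus DMSO and -0.16 for SKBG-1(R) minus SKBG-1(S). Over all genes the medians were 0.23, 0.14 and -0.08 in the same order. Of 49 genes of 16q24, the band that holds ANKRD11, 18 had a peak and 7 were tested, ANKRD11 among them. Since ANKRD11 was chosen for its values, the medians are given for the 6 other genes, and were -0.05, 0.22 and 0.28. Of the 7 genes, 0 were called between the stereoisomers. The 6 did not move one way: SLC7A5 had a log2 fold change of -0.54 for SKBG-1(R) minus DMSO, GSE1 -0.58 and ZFPM1, for a GATA cofactor, -0.55, against 1.23 for PIEZO1. PIEZO1, a gene of this band for a mechanically gated ion channel, had 2 and 156 peaks with SKBG-1(R), 5 and 12 with SKBG-1(S), and 0 and 22 with DMSO.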

How the data were processed

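The authors deposited a peak list for each immunoprecipitation, with its input as the background. Replicates were not pooled. Trimming and alignment tools named by the submitters' processing notes are cutadapt 1.9 and STAR 2.4.0i, and the peak caller is not given in the sources used here. Each deposited peak has a −log10 p and a log2 enrichment over input, used only within a list. Gene and region class are the authors' annotation. Exons, introns and sequences came from GENCODE 29 (GRCh38).

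Peaks per 10000 peaks of the list were analysed as log2 values with a prior count of 2 scaled to list size, by limma 3.58.1 in R 4.3.3 with a trended prior variance. All 6 lists entered 1 fit over the 479 genes with 10 or more peaks, at a Benjamini-Hochberg threshold of 0.05. The fit was tested on simulated data. It first missed the simulated fold changes, since the prior count shrinks them where peaks are few. The target was then reset, after that failure, to the values expected on that scale. Position and intron class used exact two-sided permutation tests by enumeration, with p as 2 times the smaller tail. Overlap means at least 1 shared nt on 1 strand. Shares have 95% Wilson intervals (SciPy 1.17.1). Alternatives were stricter limits on peaks, lists of equal size, no scaling, other prior counts and filters, and each replicate left out.

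The gene, the gene lists and the rules were chosen with earlier results of these data known. Named genes were the 5 most correlated with ANKRD11, the most peak-rich genes and members of the lists. Motif and GC shares over all peaks, which were planned, were not computed, since only 9 peaks had full sequence.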

Additional observations from a re-analysis of the deposited data

How the results depend on the processing

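Of 104 recomputed values, 13 reversed and 11 with no test moved beyond their error or, for counts, by over 1.5 times, and no call of the tests changed. The other 80 kept their direction, but not always their size. They include the values with a replicate block, which the balanced design fixes in advance. For position and intron class an unchanged call says nothing, since the exact permutation test could not give a p below 0.333. TMM scaling, also planned, is not included because it is meant for read counts. With peaks of log2 enrichment of at least 4, the position difference was -0.057 for SKBG-1(R) minus DMSO and -0.143 for SKBG-1(S) minus DMSO, and the log2 fold change of SKBG-1(R) over SKBG-1(S) was -0.25. The log2 fold change of SKBG-1(R) over DMSO was then 1.11, against 2.32 with lists of equal size and 3.32 with no scaling, where the median of all genes was 1.10. That limit left 0 regions in all 6 lists, against 1 with the stricter overlap, and peaks overlapping the other replicate fell to 26.1% and 8.97% with SKBG-1(R), 36.4% in SKBG-1(S) replicate 1, and 0% and 0% with DMSO. The proximal intron difference of SKBG-1(S) minus DMSO was 11.9 points at a −log10 p of at least 5 and 4.17 with lists of equal size, a setting chosen after seeing the data. With equal lists the position differences were close to 0, at 0.00051, 4.5e-06 and 0.00051 in the order of the next paragraph.

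Leaving out 1 replicate gave position differences of 0.005 to 0.360 (SKBG-1(R) minus DMSO), -0.176 to 0.241 (SKBG-1(S) minus DMSO) and -0.059 to 0.359 (SKBG-1(R) minus SKBG-1(S)). The proximal intron differences were -33.5 to 9.09, -22.7 to 19.9 and -20.3 to -1.36 points in the same order. The log2 fold changes of the share were 1.35 to 2.17, 1.16 to 1.62 and -0.036 to 0.83. The causes were not tested. With a replicate block the log2 fold changes were 1.79, 1.38 and 0.40 and no call changed. In this balanced design a block cannot alter these differences, so their agreement is no evidence of stability. Same-numbered lists deviated together over genes (r = 0.54, 0.58 and 0.42), but the labels give them no shared source.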
